A study of Mus musculus with 12 samples.

Results

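The genes described here encode immunoglobulin A (IgA), the proteins that join it into polymers, the receptor that carries it into saliva, and factors of the plasma cells that secrete it. They were chosen by name: Igha, Ighm, Igkc, Jchain, Mzb1, Irf4, Tnfrsf17 and Pigr, 8 of the 56065 genes in the deposited count table. All 8 were present in the table, and 6 of them passed the low-count filter that left 17893 genes for testing; Mzb1 and Tnfrsf17 did not. Bulk RNA-seq was performed on submandibular glands (SMGs) of mice aged 8 weeks, with 3 libraries in each of 4 groups. The wild-type groups were C57BL/6J females and C57BL/6J males, and the C57BL/6J-Pou2f3-/- mice of either sex are called knockout below. This constitutive knockout lacks the transcription factor POU2F3, which tuft cells (TCs) need in order to form, in every tissue and not in the gland alone. The comparisons ask whether the absence of TCs, in each sex, goes together with a different level of these transcripts, and whether the sexes differ.

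IgA is the main antibody of saliva. Plasma cells in the stroma of the gland make it as dimers, in which a J chain links the heavy chains. The polymeric immunoglobulin receptor on the basal side of duct and acinar cells binds the dimer, carries it through the cell and releases it at the lumen with a piece of the receptor, the secretory component. Igha and Ighm encode the constant parts of the heavy chains of IgA and IgM, Igkc that of the kappa light chain, and Jchain the J chain. Mzb1 is a chaperone of the endoplasmic reticulum that helps IgA secretion, Irf4 is a transcription factor of plasma cell differentiation that macrophages and dendritic cells also express, and Tnfrsf17 encodes BCMA, a survival receptor of plasma cells. Pigr encodes the receptor and is an epithelial gene.

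Total counts were 47032175 to 67882207 per library, and the TMM factors that adjust them ran from 0.625 to 1.45, lowest in the wild-type females. Values below are normalized counts, in which each library is scaled to the mean adjusted library size. At this depth 3 counts, the upper limit that a count of 0 allows, equal 2.31 to 4.52 normalized counts. The targeted gene, Pou2f3, had 0 to 10 counts in wild-type and 0 to 3 in knockout libraries and was below the filter, so it checks the labels only weakly. The glandular origin of the libraries was plain: Aqp5, the water channel of acinar cells, had at least 4897 counts and Krt18, a keratin of simple epithelia, at least 3963 in each library. Bpifa2, a salivary secretory protein, ranged from 6 to 125303 counts, the highest in knockout male 2. Of 12 B cell markers, 9 had at most 17 counts in any library, among them Ms4a1, Cd79a and Pax5 with at most 6, 4 and 3, while Ciita, Cd37 and Bank1 had 96 to 358, 24 to 101 and 9 to 160.

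Promoter sequence is shown for the genes the results turn on most where RefSeq lists one: 4 of the 8 genes had an entry in the table made from GRCm38.p6 (Jchain, Irf4, Tnfrsf17 and Pigr), and the 250 bases before each start were located in GRCm39 by exact match. Pigr is the transport receptor, and its window is chr1:130754171-130754420 on the plus strand. Capitals mark the E box CACGTG, a sequence bound by basic helix-loop-helix transcription factors, 71 to 66 bases before the start.
Pigr: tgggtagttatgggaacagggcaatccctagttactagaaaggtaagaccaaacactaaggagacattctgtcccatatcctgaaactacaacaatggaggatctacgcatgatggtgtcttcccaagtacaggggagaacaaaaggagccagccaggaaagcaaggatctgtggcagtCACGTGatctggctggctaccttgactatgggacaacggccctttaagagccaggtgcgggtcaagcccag
Jchain had the highest Pearson r with Igha over the 12 libraries, just ahead of Igkc, and its window is chr5:88675757-88676006 on the minus strand, with no capitals because it holds none of the motifs searched.
Jchain: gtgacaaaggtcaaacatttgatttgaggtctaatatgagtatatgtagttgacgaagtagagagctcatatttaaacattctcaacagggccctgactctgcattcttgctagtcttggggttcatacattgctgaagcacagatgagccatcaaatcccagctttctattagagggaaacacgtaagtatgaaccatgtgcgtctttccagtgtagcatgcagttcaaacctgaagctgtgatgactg

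The motifs were searched on both strands. They were the octamer ATGCAAAT that POU factors bind, the interferon response element (GAAA, 2 bases of any kind, GAAA), the E box, and the STAT6-type site (TTC, 4 bases of any kind, GAA). Of 32851 promoter windows of the same length, 1.6% held the octamer, 2.98% the interferon response element, 6.02% the E box and 5.85% the STAT6-type site. The octamer was in none of the 4 windows, and the one further match was an interferon response element in that of Tnfrsf17. A match describes letters only.

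Igha (ENSMUSG00000095079.7, GRCm39 chr12:113218450-113223856, minus strand) differed strongly between mice of the same group, above all in females. Wild-type females had 11.2, 606 and 7.53 normalized counts in replicates 1, 2 and 3, and knockout females had 80.8, 148 and 6.2. Wild-type males had 111, 111 and 96.5, and knockout males had 255, 95.6 and 405. A single wild-type female, replicate 2, thus held the highest level of the 12 libraries, and 3 other females (wild type 1 and 3 and knockout 3) held only 5 to 10 raw counts. The ratio of the highest to the lowest library was 80.4 among wild-type and 24.0 among knockout females, and 1.16 among wild-type and 4.24 among knockout males. In bulk tissue, fewer plasma cells and less RNA per plasma cell cannot be told apart.

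Igkc (ENSMUSG00000076609.3, chr6:70703419-70703950, plus strand) showed the same libraries as high and low. Its values were 14.6, 249 and 0 normalized counts in wild-type females and 31.2, 90.2 and 6.2 in knockout females, against 51.5, 59.9 and 59.4 for wild-type males and 131, 95.6 and 143 for the knockout males. The male groups did not overlap, whereas the female groups did. The annotation lists a pair of long noncoding RNAs that overlap Igkc, Gm30211 on the same strand and Gm68839 on the opposite one, so its reads may be divided among them.

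Jchain (ENSMUSG00000067149.7, chr5:88667668-88675750, minus strand) had 2.25, 169 and 3.01 normalized counts in wild-type females and 26.6, 69.9 and 6.2 in knockout females. Wild-type males had 24.6, 32.0 and 26.4, and the males of the knockout 104, 64.7 and 157. Each knockout male therefore exceeded each wild-type male, by group means of 108 ± 46.4 against 27.7 ± 3.88 (SD, n = 3).

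Ighm (ENSMUSG00000076617.10, chr12:113382178-113386350), which B cells also express, was steadier and ranked the libraries differently. Wild-type females had 472, 143 and 226 normalized counts, knockout females 167, 256 and 130, wild-type males 124, 173 and 206, and knockout males 201, 319 and 296. The highest Ighm was in wild-type female 1, whose Igha was among the lowest, and the wild-type female with the highest Igha had one of the low values of Ighm. The groups overlapped in both sexes.

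Of the plasma cell factors, Irf4 (ENSMUSG00000021356.11, chr13:30933209-30950959) was measured with 20 to 167 raw counts. Normalized counts were 109, 25.9 and 69.3 in wild-type and 52.0, 75.7 and 65.7 in knockout females, and 40.7, 53.4 and 56.1 in wild-type and 58.8, 157 and 93.5 in knockout males. Its lowest library was wild-type female 2, the one with the most Igha, and the male groups did not overlap. Mzb1 (ENSMUSG00000024353.6) had raw counts of 1, 2 and 2 in wild-type and 7, 0 and 3 in knockout females, and of 4, 6 and 0 in wild-type and 10, 2 and 0 in knockout males. Tnfrsf17 (ENSMUSG00000022496.6, chr16:11118528-11137938) had at most 4 counts in any library. Differences in Mzb1 and Tnfrsf17 were not detectable at this depth.

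**Figure D1:**
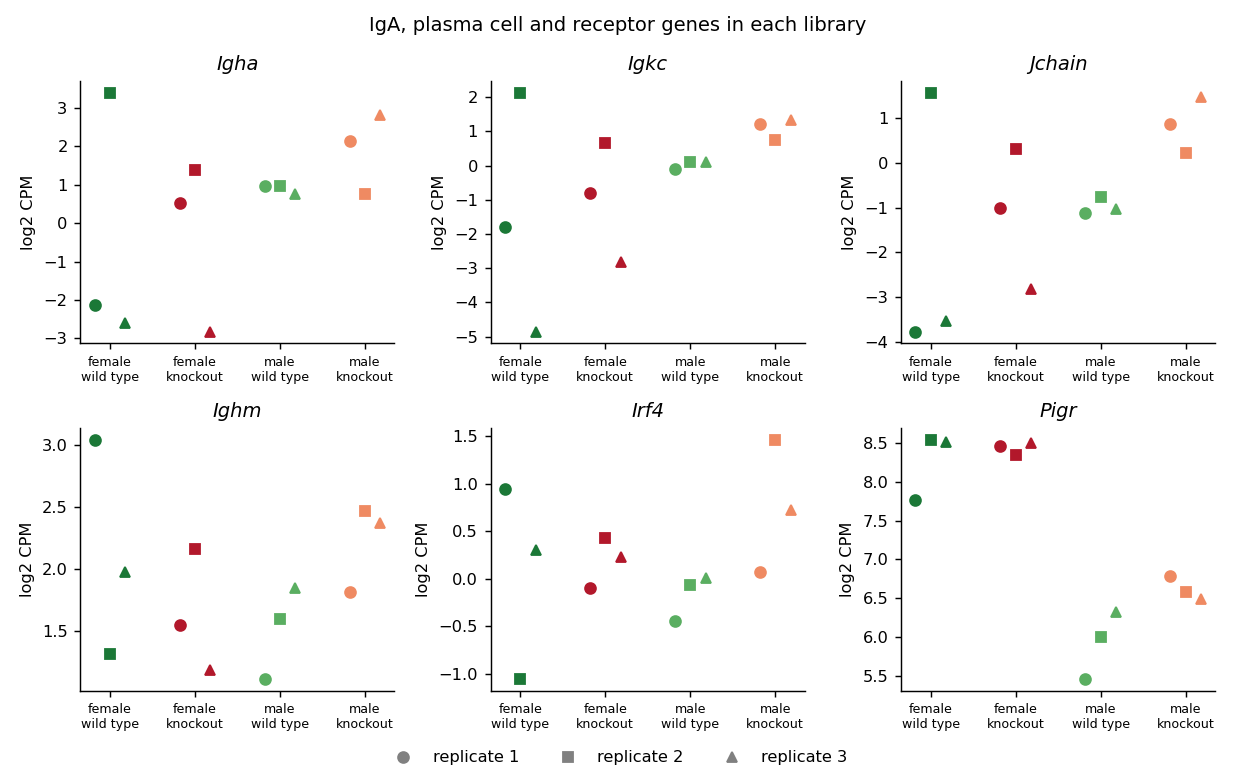
Level of the 6 tested genes in each of the 12 libraries, as log2 CPM (counts scaled to library size, with a prior count of 2) on the vertical axes, whose ranges differ between panels; colours are the 4 groups and shapes the replicate numbers. Wild-type female 2 holds the highest Igha, Igkc and Jchain and the lowest Irf4, and all males lie below all females for Pigr.

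Pigr (ENSMUSG00000026417.14, chr1:130754397-130779986, plus strand) was by far the most abundant of the 8 genes and the only one whose level separated the sexes in both genotypes. Females had 12632, 21466 and 21037 normalized counts in wild type and 20405, 18841 and 20946 in knockout. Males had 2551, 3708 and 4627 in wild type and 6400, 5532 and 5184 in knockout. No male library reached the lowest female library, and no knockout male fell to the highest wild-type male. In order of group means the levels were 20064 ± 1093 for knockout females, 18378 ± 4981 for wild-type females, 5705 ± 626 for knockout males and 3629 ± 1040 for wild-type males (SD, n = 3). Neither the first pair nor the last pair of this order passed the test across all genes given below.

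Per kilobase of exon, Pigr exceeded the next of the 8 genes by 4.78-fold to 75.0-fold within each library. The length used was the union of all annotated exons, 2.67 kb for Igha, 2.52 kb for Jchain and 0.532 kb for Igkc. It can differ from the length of the transcript expressed, so this scale compares levels of different genes only roughly. Its group medians, in normalized counts per kilobase, were 5196 in females and 916 in males of the wild type, and 5039 in females and 1366 in males of the knockout. On the same scale the medians of Igha, Igkc and Jchain were 4.21, 27.5 and 1.2 in wild-type females and 41.6, 112 and 10.5 in their male counterparts. They were 30.3, 58.6 and 10.6 in knockout females and 95.4, 245 and 41.1 in knockout males. The Gm15848 noncoding RNA overlaps Pigr on the opposite strand; the libraries were made with a stranded kit.

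**Figure D2:**
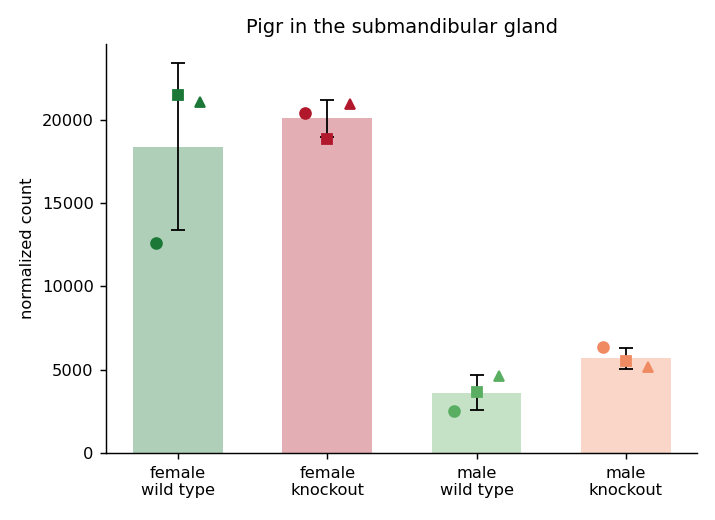
Normalized counts of Pigr (vertical axis from 0) in the 4 groups; bars are means, error bars SD of 3 libraries, and circles, squares and triangles replicates 1, 2 and 3. All males lie at or below 6400 and all females at or above 12632.

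In the test of genotype in females, the quasi-likelihood test of edgeR, with p adjusted by Benjamini-Hochberg, called 0 of the 6 tested genes, whereas it called 36.9% of all genes tested. At an unadjusted p under 0.05 the count was also 0, where 8290 of 17893 genes passed that threshold. DESeq2 likewise called 0 of the 6, against 6823 of 21219 genes. Log2 fold changes (knockout minus wild type) were −1.38 for Igha (SE 1.18), −1.02 for Igkc (SE 1.08) and −0.73 for Jchain (SE 1.08), and their direction rested on a single library. Without wild-type female 2 they were 2.99, 2.39 and 3.64, with edgeR adjusted p of 0.046, 0.086 and 0.017, so that Igha and Jchain were then called higher in the knockout. The other values were −0.60 for Ighm (SE 0.38), −0.08 for Irf4 (SE 0.45) and 0.13 for Pigr (SE 0.22), with edgeR adjusted p of 0.24, 0.91 and 0.69. Ighm was −0.05 without wild-type female 1 and −0.96 without wild-type female 2 or without knockout female 2 (edgeR adjusted p = 0.92, 0.054 and 0.10). None of the 6 had groups that did not overlap, against 49.3% of all genes. The median of the 6 fold changes was −0.67, beside 0.03 over all genes.

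In males, the genotype test called 0 of the 6, where the share of all genes called by edgeR was 0.235%; DESeq2 called 0 as well. At an unadjusted p under 0.05 there were 2, Pigr and Irf4, where 11.5% of all genes passed that threshold. Pigr was 0.65 higher in the knockout on the log2 scale (SE 0.22, edgeR adjusted p = 0.26), and Irf4 was 1.04 higher (SE 0.44, edgeR adjusted p = 0.39). The fold changes of Jchain (1.97, SE 1.07), Igha (1.24, SE 1.14), Igkc (1.11, SE 1.04) and Ighm (0.70, SE 0.38) had edgeR adjusted p of 0.52, 0.74, 0.75 and 0.51. Igha was 0.72 without knockout male 3 and 1.64 without knockout male 2 (edgeR adjusted p = 0.97 in each). Over the alternatives Irf4 ran from 0.61 to 1.32. All 6 estimates were positive, with a median of 1.07 beside −0.04 over all genes, and 4 of the 6 (Igkc, Jchain, Irf4 and Pigr) had every knockout male above every wild-type male, as 6.51% of all genes did. Igkc and Jchain varied together across mice, so these 4 are not separate observations.

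The interaction, which tests whether the genotype difference in females differs from that in males, called 0 of the 6 by edgeR, against 25.7% of all genes. Ighm alone had an unadjusted p under 0.05, as 40.4% of all genes did (log2 difference −1.30, SE 0.54, edgeR adjusted p = 0.089), and DESeq2 called it. The estimates for Igha (−2.63, SE 1.64), Igkc (−2.13, SE 1.5) and Jchain (−2.70, SE 1.52) turned to 1.72, 1.25 and 1.64 without wild-type female 2. Pigr gave −0.53 (SE 0.31, edgeR adjusted p = 0.23) and was called without wild-type female 1, with a value of −0.83 and an edgeR adjusted p of 0.032.

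Between the sexes, Pigr was lower in males in both genotypes. In wild type the log2 fold change, male minus female, was −2.34 (SE 0.23, edgeR adjusted p = 6.8e-06), a 5.06-fold lower level, and in knockout −1.81 (SE 0.23, edgeR adjusted p = 4.6e-05), a 3.52-fold lower level. It was the only one of the 6 that edgeR called in either contrast, in which 36.5% and 43.5% of all genes were called, and both calls held in each alternative analysis. Its groups did not overlap either, as in 20.9% of all genes lower in wild-type males and 27.5% lower in knockout males. Igkc was the other gene without overlap between knockout females and males, higher in males as were 27.3% of all genes. These contrasts share groups with those of genotype. Igha, Igkc and Jchain gave −0.97, −0.63 and −1.07 in wild type (SE 1.15, 1.05 and 1.08), again set by wild-type female 2: without it they were 3.44, 2.81 and 3.34 higher in males and called, with edgeR adjusted p of 0.025, 0.047 and 0.024. In knockout they gave 1.66, 1.5 and 1.64 (SE 1.17, 1.07 and 1.07) with edgeR adjusted p of 0.27, 0.28 and 0.24, and Jchain was called when wild-type female 2 was left out of the fit (1.69, edgeR adjusted p = 0.036). Without knockout female 2 the 3 values were 2.57, 2.75 and 2.76, and without knockout female 3 they were 1.18, 1.06 and 1.22, none of them called.

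**Figure D3:**
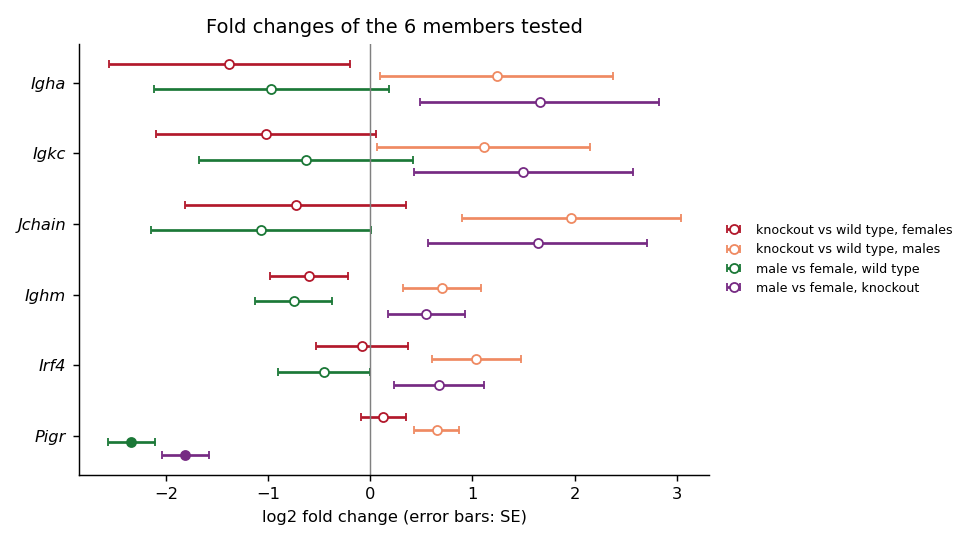
Log2 fold changes of the 6 tested genes (horizontal axis) in 4 contrasts, from edgeR; error bars are SE, and filled symbols mark an adjusted p under 0.05. Pigr between the sexes is the only filled gene, and the bars of Igha, Igkc and Jchain are the widest, with SE of 1.04 to 1.18.

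The spread between mice of a group set these genes apart from one another. The within-group SD of log2 CPM was 2.07 for Igha, 1.96 for Igkc and 1.73 for Jchain, larger than in 99.6%, 99.5% and 99.3% of genes tested, and genes of similar level had a median of 0.34, 0.43 and 0.47. Irf4 (0.64), Ighm (0.56) and Pigr (0.32) lay closer to the median of 0.24 over all genes, though above 87.4%, 82.6% and 61.4% of genes and above the medians of 0.38, 0.23 and 0.14 of genes of similar level.

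The mice with much Igha were the mice with much Igkc and Jchain. Since 3 libraries with at most 10 Igha counts lay apart from the other 9, the relation was measured within those 9, which the added analysis chose by Igha counts after the data were seen. Igha correlated with Igkc at r = 0.90 (exact permutation p = 0.00026, adjusted 0.0036 over 39 relations; rho 0.78, exact permutation p = 0.017, adjusted 0.11) and r was 0.78 without the 2 libraries farthest from the median. With Jchain it was r = 0.90 (exact permutation p = 0.00061, adjusted 0.0048; rho 0.75, exact permutation p = 0.025, adjusted 0.14), and 0.77 without the 2 farthest. Igkc and Jchain gave r = 0.94 (exact permutation p = 6.6e-05, adjusted 0.0026; rho 0.93, exact permutation p = 0.00075, adjusted 0.0097), and 0.99 without the 2 farthest. The libraries come from 4 groups, and after subtraction of the group means these r were 0.95, 0.98 and 0.99. Of all 17893 genes tested, ranked over the 12 libraries as a description, Jchain (r = 0.96) and Igkc (r = 0.94) were the nearest to Igha, and the next was the noncoding RNA Stamos (r = 0.84).

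Ighm did not follow Igha: over the 9 libraries r was −0.01 (exact permutation p = 0.99). It went with Irf4 instead, with r = 0.81 over 12 libraries (permutation p = 0.0018, adjusted 0.0088 over 39 relations; rho 0.87, permutation p = 0.00052, adjusted 0.0036), r = 0.79 without the 2 farthest and 0.84 after subtraction of group means. Both also tracked the summed macrophage markers, Ighm with r = 0.93 (permutation p = 4e-05, adjusted 0.00039) and Irf4 with r = 0.82 (permutation p = 0.00053, adjusted 0.0038), and these were 0.87 and 0.95 without the 2 farthest. Irf4 also gave r = 0.86 with the summed B cell, 0.81 with the lymph node and 0.71 with the T cell markers (permutation p adjusted 0.0038, 0.008 and 0.027), and Ighm gave 0.60, 0.69 and 0.74 (permutation p adjusted 0.13, 0.046 and 0.027). In the same order rho was 0.82, 0.55 and 0.66 for Irf4 (permutation p adjusted 0.01, 0.23 and 0.1) and 0.61, 0.62 and 0.69 for Ighm (permutation p adjusted 0.14, 0.13 and 0.085), and r of Irf4 with the lymph node markers was 0.59 without the 2 farthest libraries. The sum of the 8 macrophage markers was 17381 normalized counts in wild-type female 1, which had the most Ighm, and 6184 in wild-type female 2. The part of these markers in the Ighm and Irf4 values was not tested.

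**Figure D4:**
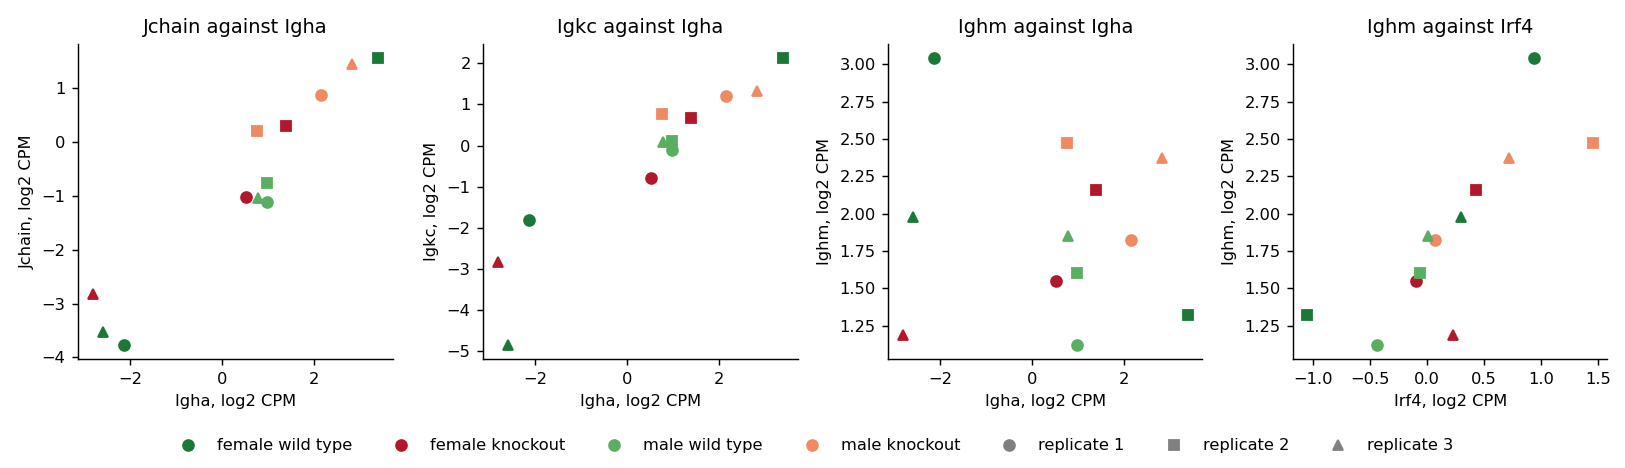
Each point is a library, at its log2 CPM of 2 genes; colours are the groups and shapes the replicate numbers. Jchain and Igkc climb with Igha, with 3 female libraries at the lower left, Ighm does not follow Igha, and Ighm climbs with Irf4.

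The share of Igha among the heavy-chain constant counts (Igha, Ighm, Ighd, the Ighg genes and Ighe) was therefore unlike in mice of 1 group. It was 2.25% (exact 95% binomial interval 1.08 to 4.09), 79.3% (75.8 to 82.5) and 2.96% (0.967 to 6.77) in wild-type females, and 31.2% (25.2 to 37.8), 35.9% (31.4 to 40.7) and 4.31% (1.41 to 9.77) in knockout females. Wild-type males had 46.5%, 38.7% and 31.2%, and knockout males 55.2%, 22.2% and 57.0%. These intervals cover counting error only. IgG transcripts were nearly absent, with 0 to 7 counts of the Ighg genes per library. Genes of the locus share similar sequence, so the assignment of reads between constant genes is uncertain. In wild-type females 1 and 3 and knockout female 3, heavy-chain constant counts were 445, 169 and 116. Beside these stood only 0, 3 and 6 heavy-chain variable counts and 13, 0 and 5 counts of Igkc. Wild-type female 2 had 589, 164 and 192 of the 3 kinds. Whether the Ighm counts come from complete IgM transcripts was not tested, so the share is not a ratio of IgA to IgM.

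**Figure D5:**
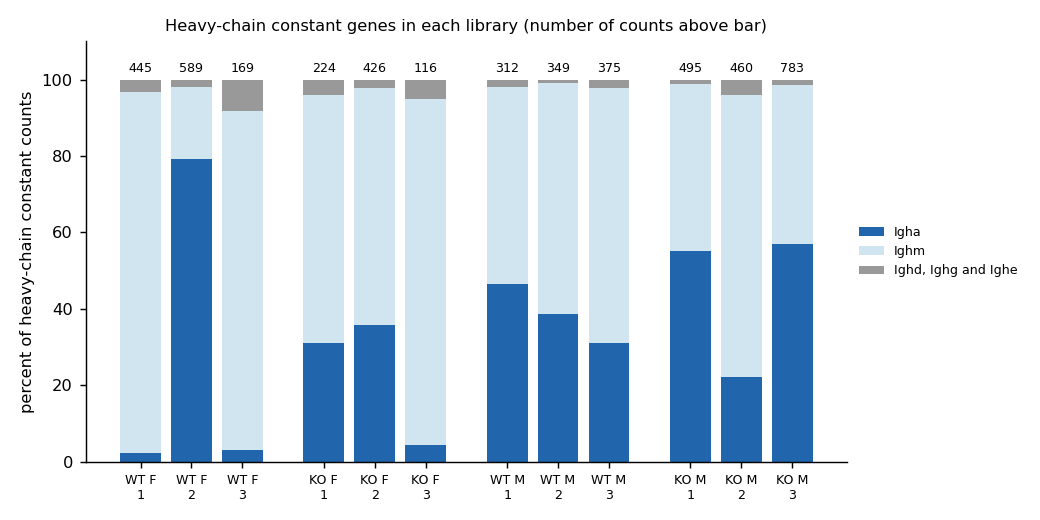
Share of Igha (dark), Ighm (light) and the other heavy-chain constant genes (grey) among heavy-chain constant counts in each library, in percent; WT and KO are wild type and knockout, F and M female and male, and the number above each bar is the total. Wild-type female 2 reaches 79.3% Igha, while wild-type females 1 and 3 and knockout female 3 stay below 5%.

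Kappa chains made up most light-chain counts. Igkc was 98.5%, 94.8% and 98.6% of the light-chain constant counts of wild-type males, 85.9%, 82.3% and 77.7% of those of knockout males, and 85.3% to 100% in the 5 female libraries that had any. These female libraries held only 5 to 224 light-chain counts. The 100% was knockout female 3, with 5 counts (exact 95% binomial interval 47.8 to 100). Of the lambda genes, Iglc1 had 5, 7 and 28 counts in the knockout males and 29 in wild-type female 2, and 0 in the 8 other libraries. Iglc3, below the filter, had 5 to 12 counts in knockout males and 0 to 1 in wild-type males. In females it had 0 to 2 in wild type and 0 in knockout. Iglc4 had 0 counts in every library. Iglc2, 1 of the 2 other constant genes that passed the filter, had 0 to 4 raw counts in wild-type and 5 to 12 in knockout males. In females it had 0 to 1 in wild type and 0 to 16 in knockout. Mean normalized counts were 1.37 in wild-type and 8.37 in knockout males, and 0.432 in wild-type and 6.71 in knockout females. The knockout libraries alone gave Iglc2 its place above the filter, so no test of genotype is given for it. Ighd, the other constant gene that passed the filter, had means of 16.2 in wild-type and 7.70 in knockout females and of 3.75 and 7.76 in the males. It was lower in wild-type males than in wild-type females (edgeR adjusted p = 0.035), a call that 8 of 19 alternatives lost, with adjusted p up to 0.11.

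Among variable genes, Igkv14-111 (ENSMUSG00000095771.3, chr6:68233373-68233853) had the highest mean share of kappa variable counts, 34.0% over the 10 libraries with more than 3 such counts, whose totals ran from 9 to 430. It had 0 counts in all 6 females, 51, 146 and 32 in males of the wild type, and 29, 145 and 253 in those of the knockout. Against 3 counts in each female library, its level was at least 15.7-fold higher in wild-type and at least 38.9-fold higher in knockout males. The male libraries alone gave it its rank and its place above the filter, so no test of sex is given. Its counts were 0.207 to 2.0 times those of Igkc in the same male library and exceeded them in wild-type male 2 and in knockout males 2 and 3. Variable genes are a family of near-identical sequences and rearranged transcripts are not in the annotation, so the naming of a single variable gene is uncertain. The next in mean share were Igkv1-117 (9.4%) and Igkv8-24 (7.11%), each with at most 21 counts in a library. The share of Igkv1-117 came mostly from knockout female 1, with 13 of 16 counts, and the leading kappa variable gene of wild-type female 2 was Igkv1-110, with 28.

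A further 14 genes of plasma cells were listed. All passed the filter, and in knockout females 7 were down-regulated, beside 19.3% of all genes, and 0 up-regulated, with a median log2 fold change of −0.56 beside 0.03 over all genes. Those down-regulated most clearly were Txndc5, a disulfide isomerase (−0.88, SE 0.12, edgeR adjusted p = 0.00032), Xbp1, a transcription factor of secretory cells (−1.0, SE 0.15, edgeR adjusted p = 0.00045), and Tent5c, a poly(A) polymerase (−0.73, SE 0.13, edgeR adjusted p = 0.0012). These also serve the secretory pathway of acinar cells. Their means in wild-type females were 13088, 17823 and 11029 normalized counts, against 208 for Igha, a mean set by wild-type female 2 (median 11.2). In males 0 of the 14 were called by edgeR or by DESeq2, with 2 at an unadjusted p under 0.05, where 11.5% of all genes passed that threshold. Without knockout male 1, edgeR called 2 higher (635 of 18575 genes were then called), and without the low-count filter 1 (389 of 30910). The pair at an unadjusted p under 0.05 was Creld2, a protein of the endoplasmic reticulum (0.96 higher in the knockout, SE 0.35, edgeR adjusted p = 0.30), and Cd38, an ectoenzyme of plasma cells and other leukocytes (0.57 higher, SE 0.24, edgeR adjusted p = 0.37).

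Genes of IgA cell homing, survival and switching gave 11 tested of 18, of which 3 were called in females, a share below the 36.9% of all genes. Ccl28, the chemokine that draws IgA plasma cells into salivary glands, was down-regulated in the knockout (9567 to 6559 normalized counts, log2 fold change −0.54, SE 0.15, edgeR adjusted p = 0.014). Tnfsf13, which encodes the plasma cell survival factor APRIL, was down-regulated as well (634 to 371, −0.77, SE 0.17, edgeR adjusted p = 0.0036), and Ccl25, a chemokine for CCR9-bearing cells, was up-regulated (245 to 534, 1.12, SE 0.26, edgeR adjusted p = 0.0058). Both Ccl28 and Tnfsf13 were also lower in wild-type males than females, by −1.39 and −1.31 (SE 0.15 and 0.17, edgeR adjusted p = 1.8e-05 and 6e-05). In knockout the values were −0.96 and −0.96 (SE 0.15 and 0.17, edgeR adjusted p = 0.0003 and 0.00069). Of all genes, 36.5% were called between the sexes in wild type and 43.5% in knockout. In males 0 of 11 were called between genotypes by edgeR, with 4 at an unadjusted p under 0.05, beside 11.5% of all genes, and 1 called by DESeq2, which called 388 of 17654 genes. These 4 included Itga4, an integrin subunit of homing lymphocytes (1.17, SE 0.36, edgeR adjusted p = 0.21), and its ligand Vcam1 (0.97, SE 0.32, edgeR adjusted p = 0.24). Cxcr4 was also higher in the knockout (1.07, SE 0.39, edgeR adjusted p = 0.29), whereas Tnfsf13 was lower (−0.42, SE 0.17, edgeR adjusted p = 0.37). DESeq2 called Itga4 (adjusted p = 0.035), as did edgeR without the low-count filter (adjusted p = 0.024), and without knockout male 1 edgeR called both Itga4 and Vcam1 (1.48 and 1.31, adjusted p = 0.029 and 0.013).

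Of 13 tested Fc receptors and regulators linked to Pigr, 2 were called in females, both lower in the knockout, as were 19.3% of all genes. The clearer of them was Tnfrsf1a, a receptor for TNF (−0.48, SE 0.08, edgeR adjusted p = 0.0011), a call that was lost with the authors' factors as offsets (−0.35, edgeR adjusted p = 0.12). In males 0 of the 13 were called by edgeR or by DESeq2, with 3 at an unadjusted p under 0.05, beside 11.5% of all genes, and 12 of 13 estimates were positive with a median of 0.11. Relb, a subunit of NF-kappaB, was 0.73 higher (SE 0.23, edgeR adjusted p = 0.23) and Ifngr1, an interferon gamma receptor chain, 0.54 higher (SE 0.17, edgeR adjusted p = 0.21), and edgeR called both without knockout male 1 (1.02 and 0.69, adjusted p = 0.0041 and 0.04).

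Marker lists of other cells are given beside these results. In knockout males all 8 macrophage markers had higher estimates (median 0.74), 0 of them called by edgeR or by DESeq2 and 6 at an unadjusted p under 0.05, beside 11.5% of all genes. Of them edgeR called 3 higher without knockout male 1, where it called 635 of 18575 genes, and 2 without the low-count filter, where it called 389 of 30910. Their sum was 6971 to 12997 normalized counts against 5209 to 6222 in wild type. In females 3 of the 8 were down-regulated in the knockout, where 19.3% of all genes were, with sums of 5234 to 8532 against 6184 to 17381. That count was 0 with upper-quartile normalization and without wild-type female 1, knockout female 1 or knockout female 3, 1 without wild-type female 3, 6 without wild-type female 2 and 5 without the low-count filter. The B cell list had 3 of 12 genes tested and 0 called in either genotype contrast by edgeR or by DESeq2. At an unadjusted p under 0.05 this list had 0 in females and 2 in males, where 8290 and 2056 of 17893 genes passed. The shares of all genes called by edgeR were 36.9% and 0.235%, whereas for the B cell list none was called. Its sum was 302 to 571 normalized counts in knockout and 206 to 293 in wild-type males, and 334 to 389 in knockout and 205 to 400 in wild-type females. Of 8 lymph node and recirculation markers 5 were tested and 0 called in either genotype contrast by edgeR or by DESeq2. With an unadjusted p under 0.05 there were 0 in females and 1 in males, beside the same 8290 and 2056 of 17893 genes. In females edgeR called 1 lower with the authors' factors as offsets, where it called 6195 of 17893 genes in either direction. It called 1 higher without wild-type female 1, where it called 7071 of 18437. The sum was 160 to 323 in knockout and 153 to 186 in wild-type males, and 147 to 207 in knockout and 113 to 241 in wild-type females. Cxcl13, a chemokine of B cell follicles, had the smallest p in males, with means of 23.1 in knockout and 6.21 in wild type (log2 fold change 1.88, SE 0.81, edgeR adjusted p = 0.40). Of the T cell list 3 of 10 genes were tested, with 0 called by edgeR or by DESeq2 in either sex. None had an unadjusted p under 0.05 in either sex, beside the same 8290 and 2056 of 17893 genes in females and males. The sum of the T cell markers was 64.1 to 124 over all libraries. Of 10 duct and acinar genes 4 were down-regulated in knockout females, beside the same 19.3% of all genes, Aqp5 among them (−0.94, SE 0.16, edgeR adjusted p = 0.0011). Over the 12 libraries, Igha gave r = −0.19 with the summed B cell, −0.18 with the T cell, −0.02 with the lymph node and −0.22 with the macrophage markers. For these sums r was −0.18 to 0.05 with Igkc and −0.16 to 0.03 with Jchain, none with an adjusted permutation p under 0.05. Within the 9 libraries the largest was 0.55, for Jchain and the macrophage markers (exact permutation p adjusted 0.39). The part of the marker cells in the immunoglobulin values was not tested.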

How the data were processed

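The authors made estimated counts per gene with Salmon 1.10.1 (submitters' processing notes; Gencode M35, GRCm39). They also deposited a normalized signal, made by the authors by dividing these counts by a factor that differs by gene and library, in a way the sources used here do not state; it served only as offsets in 1 alternative. The labels name polyadenylated RNA, whereas the methods describe stranded libraries depleted of ribosomal RNA. Counts were rounded, and edgeR 4.0.16 (R 4.3.3) fitted all 12 libraries by quasi-likelihood, each group with its own mean, with TMM, filterByExpr, and Benjamini-Hochberg adjustment at 0.05 over the 17893 genes tested. Male against female knockout, and the correlations within 9 libraries, were added after seeing the data. Normalized counts are CPM after TMM, multiplied by the average adjusted library size. For positions Gencode M39 was used, in which 55563 of the 56065 identifiers were found.

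Groups followed the labels, and each library is from its own mouse. The 8 genes and the lists were chosen with earlier results of these data known, so their counts are descriptive. Named from each further list were genes with the smallest p in a genotype contrast (at most 3 per contrast) and the other constant genes; Ms4a1, Cd79a, Pax5, Krt18 and Bpifa2 are outside this rule and were named with their values known. For variable genes and for resemblance to Igha or Pigr, those ranked first were named. The alternatives were RLE, upper-quartile and other library sizes, other filters, a fit within the groups compared, DESeq2 1.42.0, a replicate block, and each library left out. Correlations used exact permutation for 9 libraries and 100000 permutations for 12. The steps were tested on simulated data. Python 3.11.15, scipy 1.17.1 and matplotlib 3.10.9 were used. Some genes of the further lists are counted but not reported here by name.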

Additional observations from a re-analysis of the deposited data

How the results depend on the processing

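With the library wild-type female 2 left out, the log2 fold changes of Igha, Igkc and Jchain reversed to 2.99, 2.39 and 3.64 for genotype in females, to 1.72, 1.25 and 1.64 for the interaction, and to 3.44, 2.81 and 3.34 between the sexes in wild type. Without wild-type female 1, the female genotype values of Pigr and Irf4 reversed to −0.15 and 0.38, and Irf4 between the wild-type sexes to 0.04. Irf4 in females also turned to 0.02 with upper-quartile normalization, which moved the median of all genes from 0.03 to 0.13, and to 0.01 without knockout female 1. Leaving out 1 library at a time, the values ran, for genotype in females, from −2.29 to 2.99 (Igha), −2.26 to 2.39 (Igkc), −1.85 to 3.64 (Jchain), −0.96 to −0.05 (Ighm), −0.15 to 0.20 (Pigr) and −0.51 to 0.38 (Irf4), for the interaction from −3.56 to 1.72 (Igha), −3.40 to 1.25 (Igkc), −3.85 to 1.64 (Jchain) and −1.70 to −0.79 (Ighm), and between wild-type sexes from −1.57 to 3.44 (Igha), −1.22 to 2.81 (Igkc), −1.67 to 3.34 (Jchain), −1.08 to −0.18 (Ighm) and −0.86 to 0.04 (Irf4). Between knockout sexes they ran from 1.14 to 2.57 (Igha), 1.06 to 2.75 (Igkc) and 1.22 to 2.76 (Jchain). In the same way, the number of the 6 genes called by edgeR was 0 to 2 for genotype in females, 0 to 2 for the interaction, 1 to 5 between wild-type sexes and 1 to 2 between knockout sexes, and 0 throughout for genotype in males. The interaction called 1 gene, Ighm, without a filter, by DESeq2 and without knockout female 2, and 1, Pigr, without wild-type female 1. Without wild-type female 2 it called 2, Ighm and Irf4, and wild-type Ighm was then lower in males (edgeR adjusted p = 0.033).

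Replicate numbers did not pair the mice: correlations of same-numbered deviations were −0.113 to 0.0501 in females and −0.135 to 0.0904 in males. With a replicate block, Jchain and Irf4 in females gave 0.37 and 0.08, Igha, Igkc and Jchain between wild-type sexes gave 1.08, 1.22 and 0.68, and 4 genes (Igha, Igkc, Jchain and Pigr) were called between knockout sexes, with edgeR adjusted p of 0.047, 0.011 and 0.033 for the first 3. Under it 1 macrophage marker and 2 duct and acinar genes were down-regulated in females. The causes were not tested. The sex calls of Pigr held in all 21 alternatives (−2.59 to −2.14 in wild type, −1.98 to −1.73 in knockout). For genotype in males all 123 alternative fold changes of the 6 genes kept their sign and none was called. They ran from 0.72 to 1.64 (Igha), 0.99 to 1.26 (Igkc), 1.6 to 2.23 (Jchain), 0.52 to 0.88 (Ighm), 0.45 to 0.87 (Pigr) and 0.61 to 1.32 (Irf4). The number of all genes called in this contrast was 42, and 389 without a filter, 388 with DESeq2 and 635 without knockout male 1. Counts of 0 to 10 limit Mzb1 and Tnfrsf17.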

Other observations

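Over the 12 libraries, the 5 genes nearest to Pigr were Zfp872 (r = 0.99), Fads2b (0.98), Fam13a, Nectin3 and Dcdc2a (each 0.96), and after subtraction of group means these were 0.93, 0.73, 0.55, 0.64 and 0.88. These are descriptions across libraries that share groups, and no test was made of them. After Stamos, the genes nearest to Igha were Nkpd1 and Svbp (each r = 0.83), with 5 to 25 and 30 to 82 counts per library.

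Among heavy-chain variable genes the highest counts in a library were 52 of Ighv1-75 in knockout male 3 and 39 of Ighv2-6 in knockout female 2. Ighv8-8 had the highest mean share, 6.87% over 10 libraries, with at most 7 counts in any of them. Its share, and so its rank, came mostly from knockout female 3, with 3 of 6 counts. Ighv3-6 had 32 counts in wild-type female 2, 25 in knockout male 1, 10 in knockout female 2, 3 in wild-type male 2 and 0 elsewhere, and Ighv9-3 had 25 in wild-type male 3 and at most 4 elsewhere. Iglv1, a lambda variable gene, had 37 counts in wild-type female 2 and 11, 16 and 37 in knockout males, 0 in wild-type males, and at most 1 in the other females.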
